A study of Mus musculus with 12 samples.

Results

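Motile cilium axoneme genes encode the parts of the beating cilium: the dynein arms, the radial spokes, the central apparatus and the doublet microtubules with their inner proteins. They were taken here by symbol, from the families Dnah, Dnai, Dnal, Cfap, Rsph and Tekt (43 genes) and from 13 further genes named one by one: Ccdc39, Ccdc40, Spag6, Hydin, Lrriq1, Pifo, Dynlrb2, Ttc25, Wdr63, Wdr78, Mns1, Ak7 and Ak8. In all there were 56 such genes of 24391 in the count files. The rule itself uses gene symbols only. By structure they fell into 8 outer dynein arm, 12 inner dynein arm, 8 radial spoke, 6 central apparatus and 13 doublet microtubule genes, with 9 others. RNA of the anterior hard palate was sequenced from C57BL/6 mouse embryos in 4 groups of 3 samples: E16.5 mutants, E16.5 controls, E14.5 mutants and E14.5 controls. Mutants carried the Shox2Cre driver, which acts in cells that express Shox2, and the R26RFgf8 allele, a conditional Fgf8 transgene at the Rosa26 locus. Controls are labelled wild type. Nothing says whether a sample was 1 embryo or a pool, or whether samples came from separate litters, so p-values measure only the spread between these samples.

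A motile cilium is built around a ring of doublet microtubules with a central pair. Dynein motors in the outer and inner arms slide the doublets against each other, and the radial spokes and central apparatus time that sliding. In the embryonic head such cilia are carried by multiciliated cells of the nasal epithelium, which covers the nasal side of the palate, while the mesenchyme and the oral epithelium carry single primary cilia that lack most of these parts. Foxj1 and RFX factors are the best known transcriptional activators of axoneme genes.

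Library totals ran from 76417891 to 125996587 counts. Fgf8, the gene of the transgene, was high in all mutants and low in all controls. It stood at 16.5, 14 and 17.8 CPM (counts relative to library size, scaled by TMM factors) in E16.5 mutants, against 0.43, 0.462 and 0.257 CPM in E16.5 controls. At E14.5 it stood at 10.5, 11.1 and 10.8 CPM in mutants, against 0.275, 0.249 and 0.423 CPM in controls. Palate mesenchyme markers were present in every library, with Shox2 itself at 113.3 to 154.5 CPM in E16.5 mutants and 85.3 to 97.0 CPM in E16.5 controls. Of 10 neural and retinal markers, 6 rose in E16.5 mutants, against 12.2% of all genes, and 4 were not called. Their sum was 556.0, 357.5 and 528.1 CPM in E16.5 mutant libraries 1, 2 and 3, against 347.3 to 404.3 CPM in E16.5 controls, and 431.3 to 480.0 CPM in E14.5 mutants, against 477.2 to 564.8 CPM in E14.5 controls. Much of that sum comes from genes present in every library, such as Sox2 and Ncam1. Elavl3, an RNA-binding protein of neurons, stood at 18.6, 0.133 and 11.4 CPM in E16.5 mutants, against 0.561, 0.18 and 0.335 CPM in E16.5 controls. General epithelial markers summed to 7290.1, 12323.8 and 9964.7 CPM in the same 3 mutant libraries, against 11922.7 to 12360.1 CPM in controls. Library 2 is also described by itself, because E16.5 mutant libraries 1 and 3 stand apart from it in these neuronal genes. Their part in the results was not tested.

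At E16.5 many axoneme genes were far below the control level in mutants, others were near it and some lay between. Of 55 genes tested, 37 fell in mutants, 1 rose and 17 were not called, by edgeR's quasi-likelihood test with Benjamini-Hochberg adjustment over all genes and a threshold of adjusted p under 0.05. Over all genes tested, 15.7% fell and 12.2% rose. The median log2 fold change was -1.13 for the axoneme genes and 0.01 for all genes. At least 2-fold lower were 28 of them, against 5.98% of all genes. The 3 mutants lay below all 3 controls for 38 of the 55, against 24.5% of all genes, and above them for 1, Ccdc40, against 18.3%. Called in either direction were 27.9% of all genes. Leaving out mutant libraries 1 and 3 leaves 1 mutant library, with no spread of its own. That library, number 2, stood at a median of 33.6% of the control mean for the 37 genes that fell. For the 17 not called its median was 107.8%. In bulk tissue, fewer ciliated cells and less of each RNA per ciliated cell cannot be told apart.

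The changes were spread unevenly. Between log2 fold changes of -2.0 and -1.5 lay 23 of the 55 genes (41.8%), against 2.78% of all genes. At -2.0 or just below lay 1 gene, 4 lay between -1.5 and -1.0, 8 between -1.0 and -0.5 (14.5%, against 7.37% of all genes), 13 between -0.5 and 0, and 6 between 0 and 0.5. The 28 genes that fell at least 2-fold ranged from -2.0 to -1.13 with a median of -1.77. The 9 that fell less were Cfap20, Cfap36, Dnah2, Dnah11, Dnal1, Rsph3a, Rsph3b, Tekt2 and Tekt5. The 17 not called ranged from -0.32 to 0.38 with a median of -0.13. Genes that fell and genes that did not pass were present in each structural class: 5 of 8 outer arm, 9 of 12 inner arm, 5 of 7 radial spoke, 3 of 6 central apparatus, 8 of 13 doublet microtubule and 7 of 9 other genes fell. Summed CPM of a class in mutants came to 0.824 of the control sum for the outer arm, 0.779 for the radial spokes, 0.665 for the doublets, 0.586 for the central apparatus, 0.535 for the inner arm and 0.478 for the others. These sums are carried by whichever members are abundant, such as Dnah5 in the outer arm.

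**Figure D1:**
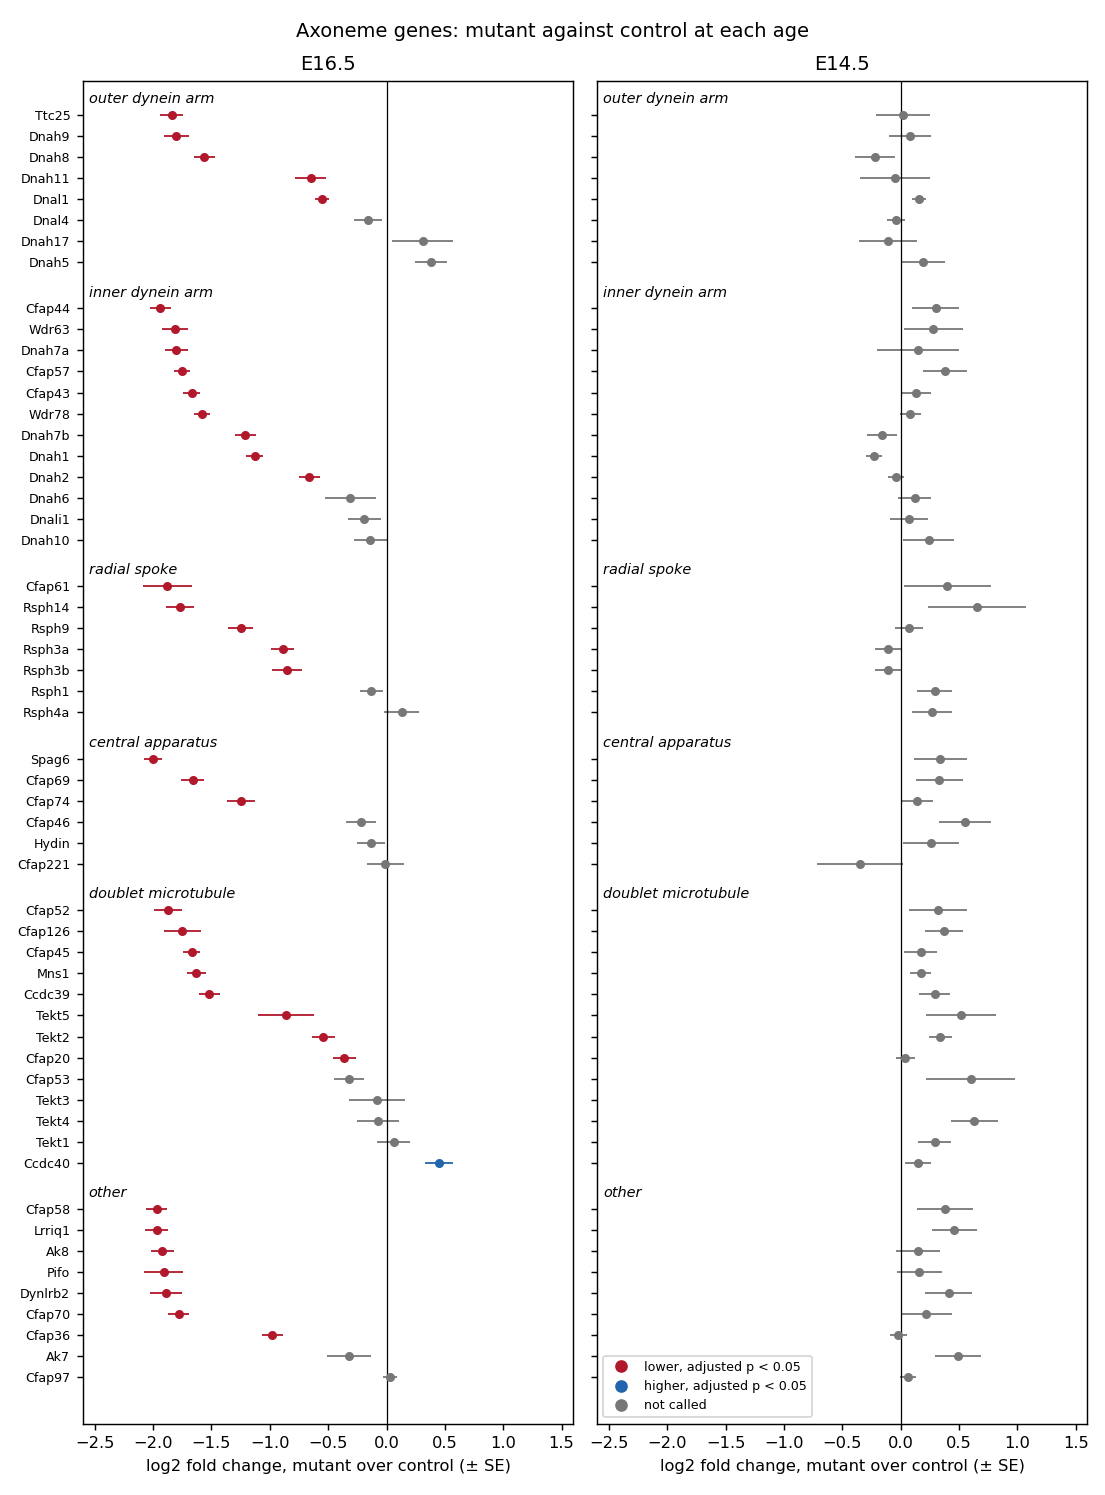
Log2 fold change of mutant over control (x axis, bars are SE) for each axoneme gene, grouped by structural class, at E16.5 (left) and E14.5 (right). At E16.5 every class holds genes near -1.5 to -2.0 as well as genes near 0, and at E14.5 no gene was called.

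Promoters are shown because RFX factors are known activators of axoneme genes and their motif can be read from the sequence. RefSeq promoters of build GRCm38.p6, from 250 bases before to 50 after the start, were found for 50 of the 56 genes. Cfap53, Cfap97, Rsph1, Rsph4a, Ttc25 and Wdr78 had no entry. The half-site GTTGCC of the RFX X-box, searched on both strands, was in the promoters of 18 of the 50 genes (36.0%), against 14.1% of 27025 genes in the whole table. It was in 13 of 35 that fell at E16.5 (37.1%) and in 5 of 14 that were not called or rose (35.7%). The full X-box in a strict form (GTTNCC, 1 to 3 bases, GGNAAC, which can contain the half-site) was in 1 of the 50, Pifo, against 0.903% of all genes. Looser forms of the X-box were not searched, so a half-site marked below may be part of such a form. The forkhead core TGTTTAC, also searched on both strands and sharing no overlap with the other motifs, was in 5 of 50 (10%), against 4.05% of all genes. It was in 2 of 35 that fell (5.71%) and in 3 of 14 that were not called or rose (21.4%). The 6 stretches below, chosen after the calls were known, show the motif near the start in 3 genes that fell and 3 that were not called, as 100 bases before to 20 bases after the start on the gene's own strand. Capitals mark the X-box in Pifo and the half-site or its reverse complement GGCAAC in the others.
Pifo, fell, chr3:106001478-106001597, minus strand: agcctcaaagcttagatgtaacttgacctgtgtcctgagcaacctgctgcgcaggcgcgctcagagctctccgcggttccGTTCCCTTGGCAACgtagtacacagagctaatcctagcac
Dynlrb2, fell, chr8:116504915-116505034, plus strand: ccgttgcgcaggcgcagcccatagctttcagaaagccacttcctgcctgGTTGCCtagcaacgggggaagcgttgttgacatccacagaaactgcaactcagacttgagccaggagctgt
Lrriq1, fell, chr10:103236303-103236422, minus strand: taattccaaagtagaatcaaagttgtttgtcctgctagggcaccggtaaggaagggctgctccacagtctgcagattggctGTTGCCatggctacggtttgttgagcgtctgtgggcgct
Tekt1, not called, chr11:72361863-72361982, minus strand: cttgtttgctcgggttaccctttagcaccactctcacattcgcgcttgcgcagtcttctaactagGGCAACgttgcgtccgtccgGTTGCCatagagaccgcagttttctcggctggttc
Hydin, not called, chr8:110266877-110266996, plus strand: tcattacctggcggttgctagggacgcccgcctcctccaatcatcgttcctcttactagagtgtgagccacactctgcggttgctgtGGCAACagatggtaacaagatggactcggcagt
Dnah10, not called, chr5:124724985-124725104, plus strand: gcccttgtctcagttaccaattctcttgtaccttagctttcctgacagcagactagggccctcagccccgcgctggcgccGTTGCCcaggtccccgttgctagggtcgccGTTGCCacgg

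The marked X-box of Pifo begins 20 bases before the start. The half-site begins 51 bases before the start in Dynlrb2, 19 in Lrriq1 and 13 in Hydin. Tekt1 carries it at 35 and 15 bases before the start, on opposite strands. Dnah10 carries it 20 bases before and 10 bases past the start. The letters are thus found close to the start in genes that fell and in genes that were not called. A match describes these letters only and does not show that a factor binds there. The count files are on build mm9 and hold no coordinates, so these positions are those of GRCm38.p6.

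The outer dynein arm, the main source of beating force, held genes with steep falls and genes that were not called. Dnah5, a heavy chain of the outer arm, stood at 221.4, 328.8 and 302.3 CPM in E16.5 mutants and 201.8, 219.4 and 245.3 CPM in E16.5 controls. Mutant 1 lay among the controls and mutants 2 and 3 above them, and the difference was not called (log2 fold change 0.38, SE 0.14, adjusted p = 0.0709). It was called higher with the replicate block (0.36, adjusted p = 0.0157), by DESeq2 (0.38, adjusted p = 0.0222), and once mutant library 1 was left out (0.52, adjusted p = 0.00632). Dnah9, the heavy chain that pairs with Dnah5 along the outer part of the cilium, stood at 19.6, 25.9 and 24.8 CPM in mutants and 76, 86.8 and 86.2 CPM in controls. All 3 mutants were far below the controls (log2 fold change -1.80, SE 0.11, adjusted p = 1.15e-05). Dnal1, a light chain of the outer arm, stood at 50.6, 51.3 and 52.4 CPM in mutants and 71.9, 79.2 and 78.1 CPM in controls, without overlap (-0.55, SE 0.06, adjusted p = 0.000377). Dnal4, a dynein light chain, stood at 68.1, 81.8 and 63.0 CPM in mutants and 84.2, 88.2 and 68.7 CPM in controls. These overlapped (-0.16, SE 0.12, adjusted p = 0.372), though the replicate block called Dnal4 lower (adjusted p = 0.0451). Ttc25, a docking complex protein, Dnah8 and Dnah11 fell, with log2 fold changes of -1.84, -1.56 and -0.65. The Dnah11 call ended in a joint fit of all samples (-0.68, adjusted p = 0.0547). In replicates 1 and 2 by themselves it also ended (-0.59, adjusted p = 0.0878). Dropping mutants 1 and 3, which left 1 mutant library, gave -0.46, again without a call. Dnah17, at 1.11 to 1.32 CPM in mutants and 0.74 to 1.19 CPM in controls, was not called. Dnah8 and Dnah17 are known mainly as heavy chains of sperm flagella.

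The inner dynein arm, which shapes the bend, held 9 of the genes that fell. Dnah6 and Dnah10, both inner arm heavy chains, were not called. Dnah6 stood at 55.7, 102.0 and 118.5 CPM in E16.5 mutants and 113.9, 111.8 and 121.2 CPM in controls (log2 fold change -0.31, SE 0.22, adjusted p = 0.338). Mutants 1 and 2 were below all controls and mutant 3 was among them. Dnah10 stood at 74.1, 114.7 and 91.4 CPM in mutants and 100.2, 115.5 and 98.2 CPM in controls (-0.14, SE 0.14, adjusted p = 0.488). Dnali1, a light chain of the single-headed inner dyneins, stood at 58.7, 94.2 and 84.9 CPM in mutants and 93.4, 93.5 and 88.6 CPM in controls (-0.19, SE 0.14, adjusted p = 0.36). In these 3 genes mutant 1 was the lowest sample, and the groups overlapped. Wdr78, an intermediate chain of the double-headed inner dynein, was clearly apart. It stood at 29.5, 33.8 and 30.4 CPM in mutants and 90.5, 98.1 and 94.9 CPM in controls (-1.58, SE 0.07, adjusted p = 6.33e-06), with the 3 mutants close together. Cfap43 stood at 24.4, 23.3 and 22.1 CPM in mutants and 74.7, 78.7 and 72.8 CPM in controls, without overlap. Cfap43 and Cfap44, which tether the head of that dynein, fell, with log2 fold changes of -1.67 and -1.94, as did its other intermediate chain Wdr63, at -1.81. Cfap57, a protein of inner arm assembly, stood at 11, 12.2 and 11.1 CPM in mutants and 39.6, 38.3 and 39.6 CPM in controls (-1.75, SE 0.07, adjusted p = 6.33e-06). Among heavy chains Dnah7a, Dnah7b, Dnah1 and Dnah2 fell, with log2 fold changes of -1.80, -1.21, -1.13 and -0.66. Dnah7a shares 30.6% of its 50-base exon stretches with Dnah7b and 30.3% with Dnah7c, which is not among the genes taken here. Dnah7b shares 38.5% with Dnah7c, so counts of Dnah7a and Dnah7b are uncertain.

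Radial spokes reach from the doublets to the central pair. Rsph1, Rsph4a and Rsph9 encode proteins of the spoke head. Rsph1 stood at 88.0, 112.4 and 91.1 CPM in E16.5 mutants and 102.2, 117.0 and 105.5 CPM in controls (log2 fold change -0.13, SE 0.1, adjusted p = 0.352). It was called lower under the replicate block alone (-0.14, adjusted p = 0.0487). Rsph4a stood at 72.6, 117.7 and 106.8 CPM in mutants and 86.3, 95.5 and 93.7 CPM in controls, with mutant 1 below and the others above the controls (0.13, SE 0.15, adjusted p = 0.564). With mutant library 1 left out it was called higher (0.30, adjusted p = 0.0315). Rsph9 stood at 14.5, 11.8 and 11.8 CPM in mutants and 29.6, 32.9 and 29.8 CPM in controls, without overlap (-1.25, SE 0.11, adjusted p = 7.52e-05). Genes of the same spoke head thus lay on both sides of the threshold. Rsph3a, of the spoke stalk, stood at 16.5, 20 and 15.7 CPM in mutants and 35.3, 30.8 and 32.1 CPM in controls (-0.89, SE 0.1, adjusted p = 0.000416). It shares 74.0% of its 50-base exon stretches with Rsph3b, which fell at -0.85, so counts of each are uncertain. Cfap61 and Rsph14, further spoke proteins, fell, at -1.88 and -1.77. Rsph6a, known as a spoke protein of sperm, had at most 0.0595 CPM in any sample and was not tested.

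The central apparatus split evenly. Hydin, a protein of a central pair projection, stood at 51.1, 72.3 and 57.6 CPM in E16.5 mutants and 59.8, 68.8 and 72.5 CPM in controls (log2 fold change -0.13, SE 0.12, adjusted p = 0.466). Cfap46, of another projection, stood at 29.7, 43.3 and 37.8 CPM in mutants and 43.2, 47.8 and 39.7 CPM in controls (-0.22, SE 0.13, adjusted p = 0.242). In both genes the groups overlapped. Spag6, a central pair protein, had the steepest fall of the 55 genes: 13.9, 15.7 and 14.9 CPM in mutants and 56.3, 64.6 and 60.5 CPM in controls (-2.0, SE 0.08, adjusted p = 6.33e-06). RefSeq cross-lists the symbols Spag6 and Spag6l, so which of these loci the deposited symbol stands for is uncertain. Cfap69, also of the central apparatus, stood at 15, 16.7 and 15.1 CPM in mutants and 43.5, 56.5 and 50.8 CPM in controls (-1.66, SE 0.1, adjusted p = 1.48e-05). Cfap74, the partner of Cfap46 and Cfap221 in 1 projection, fell at -1.25, while Cfap221 was not called at -0.01.

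In the doublet microtubule class stood the 1 gene that rose. Ccdc40, which with Ccdc39 forms the ruler that spaces dynein arms and spokes along the doublet, stood at 114.2, 169.2 and 152.0 CPM in E16.5 mutants and 102.1, 108.3 and 112.2 CPM in controls. All 3 mutants were above the controls, mutant 1 only just (log2 fold change 0.45, SE 0.12, adjusted p = 0.0267). Leaving out 1 library ended the Ccdc40 call for mutant 2 (adjusted p = 0.0584), mutant 3 (0.0708), control 1 (0.101), control 2 (0.0963) and control 3 (0.0592). Of 18 settings, main fit included and 2-fold minimum left out, 12 called Ccdc40 higher, and its highest adjusted p was 0.149. Ccdc39 fell at -1.52 (adjusted p = 1.29e-05). Tekt1, a filament protein inside the doublet, stood at 64.9, 103.2 and 94.3 CPM in mutants and 86.7, 87.7 and 80.7 CPM in controls (0.06, SE 0.14, adjusted p = 0.793), with mutant 1 lowest and mutants 2 and 3 highest. Mns1, another protein of the doublet lumen, stood at 23.3, 23.0 and 22 CPM in mutants and 67.2, 77.6 and 69.9 CPM in controls (-1.63, SE 0.08, adjusted p = 6.47e-06). Cfap20, of the inner junction between the 2 tubules of a doublet, stood at 82.3, 86.9 and 72.1 CPM in mutants and 106.2, 113.0 and 94.4 CPM in controls. Its groups did not overlap, but the change was small (-0.36, SE 0.1, adjusted p = 0.0252). Leaving out 1 library ended the Cfap20 call for mutant 3 (adjusted p = 0.0739), control 1 (0.0863) and control 2 (0.102). Dropping mutants 1 and 3 together, which left 1 mutant library, also ended it. The inner proteins Cfap52, Cfap126 and Cfap45 fell, at -1.87, -1.75 and -1.67 on the log2 scale, and Tekt5 and Tekt2 at -0.86 and -0.54. The Tekt5 call ended without mutant 1 (adjusted p = 0.091), mutant 3 (0.0825), control 1 (0.0786) or control 2 (0.123). It also ended in replicates 1 and 2 by themselves (0.105) and when mutants 1 and 3 were both dropped, which left 1 mutant library. Cfap53, Tekt3 and Tekt4 were not called, at -0.32, -0.08 and -0.07. Cfap53 was called lower with the replicate block (-0.33, adjusted p = 0.0378) and with mutant 2 left out (-0.46, adjusted p = 0.0181). Exons of Ccdc39, Mns1 and Tekt2 overlap those of Ttc14 (34.2% of bases), Tex9 (54.1%) and Gm12945 (25.7%), and the strand setting of the counting is not given in the sources used here.

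Among the other genes 7 of 9 fell, with a class median of -1.89. Lrriq1, a leucine-rich repeat protein, stood at 8.73, 10.7 and 8.79 CPM in E16.5 mutants and 34.8, 39.0 and 38.5 CPM in controls (log2 fold change -1.97, SE 0.1, adjusted p = 7.79e-06). Cfap58 stood at 5.23, 6.05 and 5.56 CPM in mutants and 21.4, 23.0 and 22.3 CPM in controls (-1.97, SE 0.09, adjusted p = 6.33e-06). Dynlrb2, a roadblock-type dynein light chain, stood at 22.7, 21.9 and 19.7 CPM in mutants and 80.1, 97.5 and 65.7 CPM in controls (-1.89, SE 0.14, adjusted p = 3.27e-05). In all 3 the mutants lay close together and far below the lowest control. The 2 adenylate kinases, which keep up the supply of ATP, differed. Ak8 stood at 5.98, 6.62 and 5.38 CPM in mutants and 23.7, 22.1 and 23.3 CPM in controls (-1.92, SE 0.1, adjusted p = 7.82e-06). Ak7 stood at 54.1, 96.1 and 99.9 CPM in mutants and 102.0, 111.4 and 103.3 CPM in controls, below the controls in every mutant but not called (-0.32, SE 0.19, adjusted p = 0.252). Pifo and Cfap70 fell, at -1.91 and -1.78. Cfap36 stood at 52.2, 50.2 and 45.0 CPM in mutants and 97.3, 108.1 and 90.0 CPM in controls (-0.98, SE 0.09, adjusted p = 0.00012). Cfap97, at 43.5 to 46.0 CPM in mutants and 43.2 to 46.3 CPM in controls, was the same in all samples to within a few CPM (0.03, SE 0.06, adjusted p = 0.768).

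Partners within 1 structure can be compared inside each library by the ratio of their raw counts, which does not depend on scaling between libraries. The 4 pairs below were chosen after the values were seen, and the ratios are a description. Ccdc39 over Ccdc40 was 0.183, 0.124 and 0.124 in E16.5 mutants, against 0.523, 0.602 and 0.522 in controls. Dnah9 over Dnah5 was 0.0888, 0.0789 and 0.0821 in mutants, against 0.377, 0.396 and 0.351 in controls. Rsph9 over Rsph1 was 0.164, 0.105 and 0.129 in mutants, against 0.289, 0.282 and 0.282 in controls. Every mutant library had a lower ratio than every control library in these 3 pairs, as also for Spag6 over Hydin, at 0.271, 0.217 and 0.259 in mutants against 0.942, 0.938 and 0.834 in controls. At E14.5 the mean ratio of Dnah9 over Dnah5 was 0.332 ± 0.0777 in mutants and 0.352 ± 0.0334 in controls (SD, n = 3 each). That of Ccdc39 over Ccdc40 was 0.711 ± 0.0413 in E14.5 mutants and 0.642 ± 0.0315 in E14.5 controls. For Rsph9 over Rsph1 it was 0.654 ± 0.0428 in E14.5 mutants and 0.773 ± 0.0966 in E14.5 controls, and for Spag6 over Hydin 2.49 ± 0.0733 in E14.5 mutants and 2.36 ± 0.589 in E14.5 controls. At that age mutants and controls overlapped for Dnah9 over Dnah5 and Spag6 over Hydin. They did not for Ccdc39 over Ccdc40, higher in mutants, or for Rsph9 over Rsph1, lower in mutants. The control means also differed with age: at E16.5 they were 0.549 ± 0.0457 for Ccdc39 over Ccdc40, 0.375 ± 0.0222 for Dnah9 over Dnah5, 0.284 ± 0.00429 for Rsph9 over Rsph1 and 0.905 ± 0.0612 for Spag6 over Hydin, so the last 2 were far below their E14.5 control means.

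**Figure D2:**
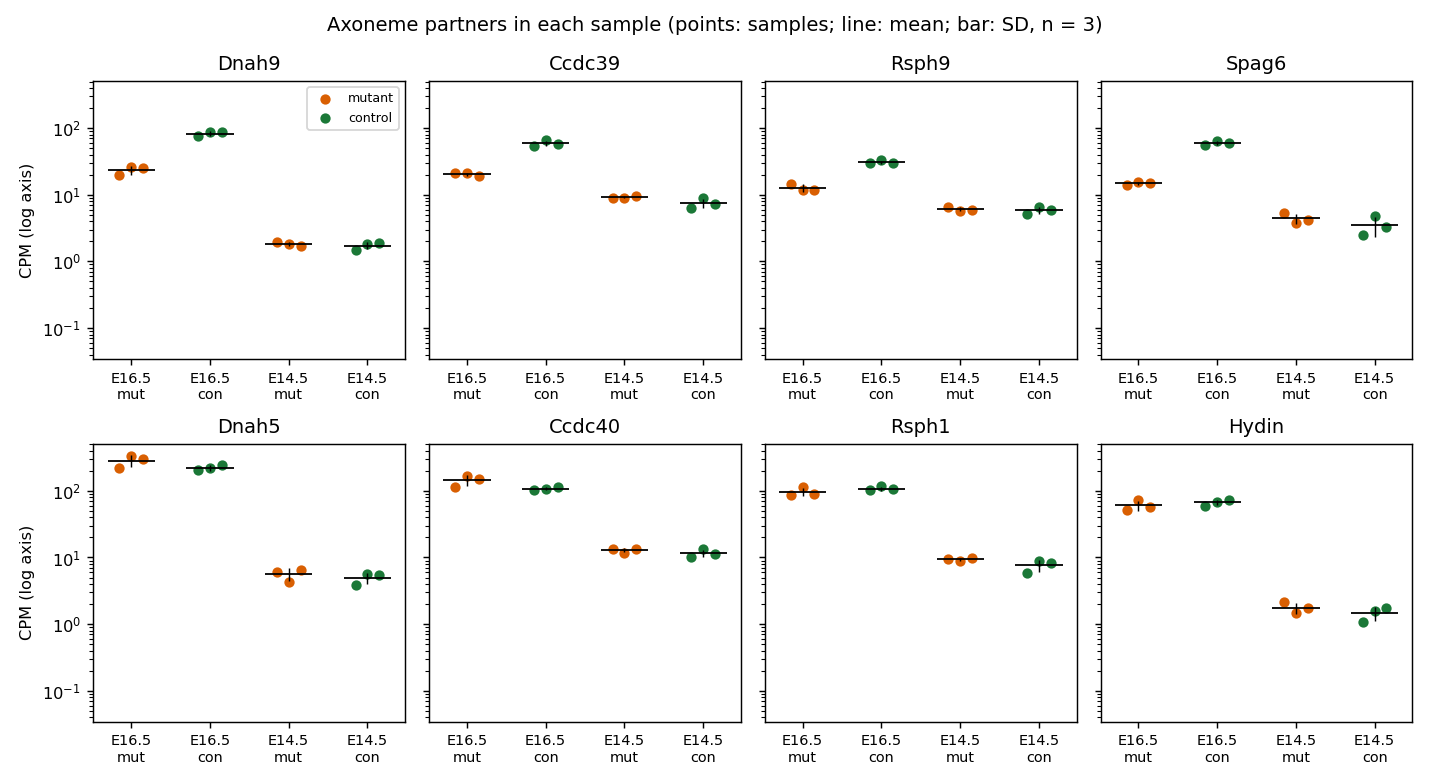
CPM of 8 axoneme genes in each sample (log axis), in columns of 2 partners from 1 structure, with mutants left of controls at E16.5 and then E14.5; points are samples, lines are means and bars are SD (n = 3). The upper genes fell in E16.5 mutants, while Dnah5, Rsph1 and Hydin below them were not called and Ccdc40 rose.

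The 3 E16.5 mutant libraries differed among themselves. For the genes that fell at least 2-fold, mutant libraries 1, 2 and 3 stood at a median of 27.4, 32.0 and 28.9% of the control mean. For the genes that were not called, the medians were 76.2, 107.8 and 92.4%. Library 1 was under 0.8 of library 2 for 14 of the 17 genes that were not called, but for 5 of the 28 that fell at least 2-fold. These groups were drawn from calls on the same libraries, and spread between mutants enters the call, so the contrast is a description. Library 1 was the lowest of all 6 libraries for 33 of the 55 genes, a count not made over all genes. Library 1 also had the lowest general epithelial sum, as given above, and Foxj1 at 102.4 CPM, against 394.0 and 353.0 CPM in libraries 2 and 3 and 405.2, 481.3 and 413.7 CPM in controls. Foxj1, the master activator of motile cilia, was below the controls in all 3 mutants but was not called (log2 fold change -0.60, SE 0.39, adjusted p = 0.296). In library 2 the general epithelial sum lay among the control sums, while the sum over genes of non-ciliated nasal epithelium was 1284.5 CPM, against 2295.7 to 2397.7 CPM in controls. The general epithelial sum is carried by abundant keratins such as Krt5, at 4252.6 CPM in library 2. In that library Krt8 stood at 256.1 CPM, against 418.7, 438.0 and 396.7 CPM in controls. Cldn7, Cdh1, Krt18, Krt19, Cldn4, Esrp1, Grhl2 and Elf3 were also below all controls there. Epcam, Krt5, Krt15 and Trp63 lay among the controls and Krt14 above them. The part of epithelial content in these results was not tested.

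**Figure D3:**
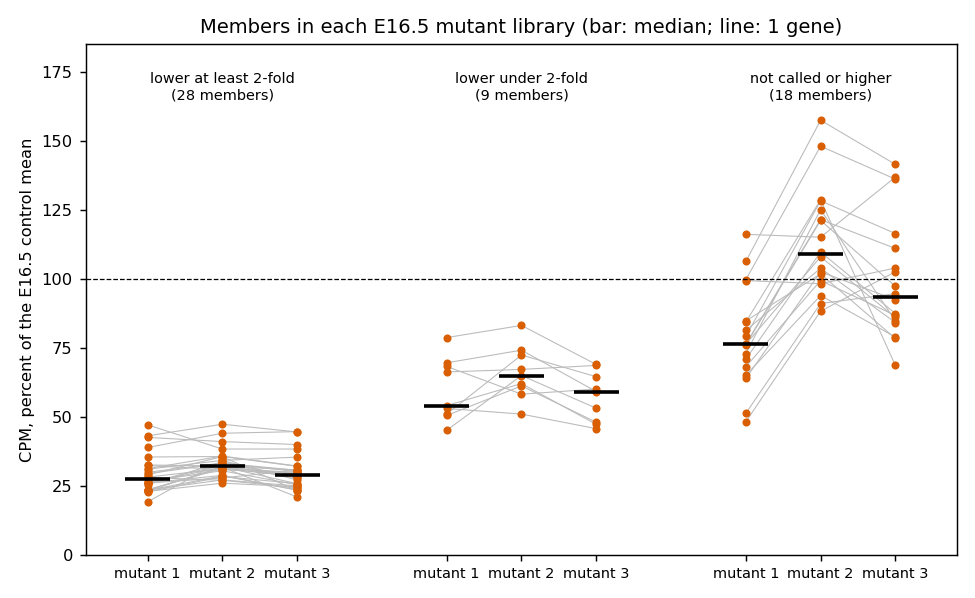
CPM of each axoneme gene in E16.5 mutant libraries 1, 2 and 3 as a percent of its E16.5 control mean; lines join 1 gene and bars are medians. Genes that fell at least 2-fold stand at medians of 27.4, 32.0 and 28.9%, while genes not called or higher stand at medians of 76.3, 108.7 and 93.5%. The groups were drawn from calls on these same libraries.

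The effect of genotype was tested for a difference between the ages in 1 fit of all 12 samples. It was lower at E16.5 than at E14.5 for 37 of 55 axoneme genes and higher for 0, against 12.4% of all genes lower and 9.97% higher, with 4 of the remaining 18 at an unadjusted p under 0.05. No axoneme gene was called higher by DESeq2 or limma-voom either. Leaving out E16.5 mutant libraries 1 and 3 leaves 1 mutant library at that age, so no count is given for that fit. The median difference was -1.08, against -0.01 over all genes. The smallest adjusted p-values were those of Mns1 (log2 difference -1.82, SE 0.12), Wdr78 (-1.68, SE 0.11), Cfap57 (-2.15, SE 0.14), Cfap43 (-1.82, SE 0.13) and Ak8 (-2.08, SE 0.17), from 2.32e-06 to 1.15e-05. Lrriq1 had the most negative difference (-2.45, SE 0.21, adjusted p = 1.29e-05). Dnah11 fell at E16.5, but its difference between ages was not called (-0.63, SE 0.37, adjusted p = 0.265). Cfap46 was not called at either age, yet its difference was (-0.78, SE 0.25, adjusted p = 0.0431). Leaving out any 1 of 9 libraries ended the Cfap46 call, with the difference at -0.62 without mutant library 1 of E16.5 (adjusted p = 0.0894).

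At E14.5 no axoneme gene passed the test for genotype. Of 54 tested, 0 were called by edgeR, against 7.52% of all genes (2.95% higher and 4.57% lower), and 9 had an unadjusted p under 0.05. DESeq2 called Dnah1 lower and Tekt2 and Tekt4 higher, and limma-voom called 0. Fold changes leaned upward: 43 were above 0 and 11 below, with a median of 0.17 against 0.01 over all genes. Tekt4 stood at 3.77, 3.09 and 3.16 CPM in mutants and 1.59, 2.6 and 2.28 CPM in controls (log2 fold change 0.63, SE 0.2, adjusted p = 0.0856). Tekt2 stood at 32.2, 31.0 and 26.5 CPM in mutants and 21.2, 27.0 and 22.7 CPM in controls (0.34, SE 0.1, adjusted p = 0.082). Dnah1 stood at 18.4, 20.7 and 20.2 CPM in mutants and 23.0, 23.7 and 22.7 CPM in controls (-0.23, SE 0.07, adjusted p = 0.0894). Tekt4 and Dnah1 showed no overlap between the groups, and in Tekt2 mutant 3 lay within the control range. Control library 1 was the lowest of the 6 libraries for 36 of the 54 genes, a count not made over all genes. Its general epithelial markers summed to 1081.4 CPM, against 1793.6 to 1929.7 CPM in mutants and 1788.9 and 1502.7 CPM in the other controls, and the part of this in the upward lean was not tested. Without control library 2, 4 genes were called higher (Cfap46, Cfap126, Tekt2 and Tekt4), and without mutant library 3, Tekt2 alone.

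Axoneme genes rose with age in both genotypes. From E14.5 to E16.5, 49 of 55 rose in mutants (27.2% of all genes rose) and 53 of 55 rose in controls (34.3% of all genes rose). In E16.5 mutant library 2 by itself the 56 genes summed to 2383.4 CPM, against 569.9 to 619.5 CPM in E14.5 mutants. The median log2 change, E16.5 over E14.5, was 1.61 in mutants and 3.79 in controls. At least 2-fold higher at E16.5 were 41 in mutants (13.5% of all genes) and 48 in controls (18.0% of all genes). At a group mean of 10 CPM or more stood 43 of the 56 genes in E16.5 mutants and 51 in E16.5 controls, against 14 in E14.5 mutants and 13 in E14.5 controls. Summed over the 56 genes, levels were 1785.2, 2383.4 and 2130.5 CPM in E16.5 mutants and 3193.4, 3483.4 and 3235.8 CPM in E16.5 controls. At E14.5 they were 619.5, 577.9 and 569.9 CPM in mutants and 523.2, 596.8 and 536.2 CPM in controls. In controls the genes that did not rise were Cfap97 and Dnah17, and in mutants they also included Cfap20, Cfap36, Mns1 and Tekt2.

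The rise with age differed between genes. Mns1 was at 22.8 ± 0.689 CPM in E16.5 mutants and 21.3 ± 0.651 CPM in E14.5 mutants, a change that was not called (log2 0.10, SE 0.08, adjusted p = 0.344). In controls it was at 71.6 ± 5.39 CPM at E16.5 and 18.9 ± 2.04 CPM at E14.5 (1.92, SE 0.08, adjusted p = 4.31e-10). Hydin, by contrast, rose by 5.09 (SE 0.19) in mutants and 5.50 (SE 0.19) in controls, and Dnah5 by 5.65 (SE 0.21) in mutants and 5.48 (SE 0.21) in controls. Dnah9 rose by 3.69 (SE 0.13) in mutants and 5.59 (SE 0.13) in controls. Among the 28 genes that fell at least 2-fold at E16.5, the median rise was 1.54 in mutants and 3.80 in controls. Among the 17 not called it was 4.10 in mutants and 4.55 in controls. These groups were drawn from the E16.5 calls, which share samples with the age changes, so the contrast between them is a description.

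**Figure D4:**
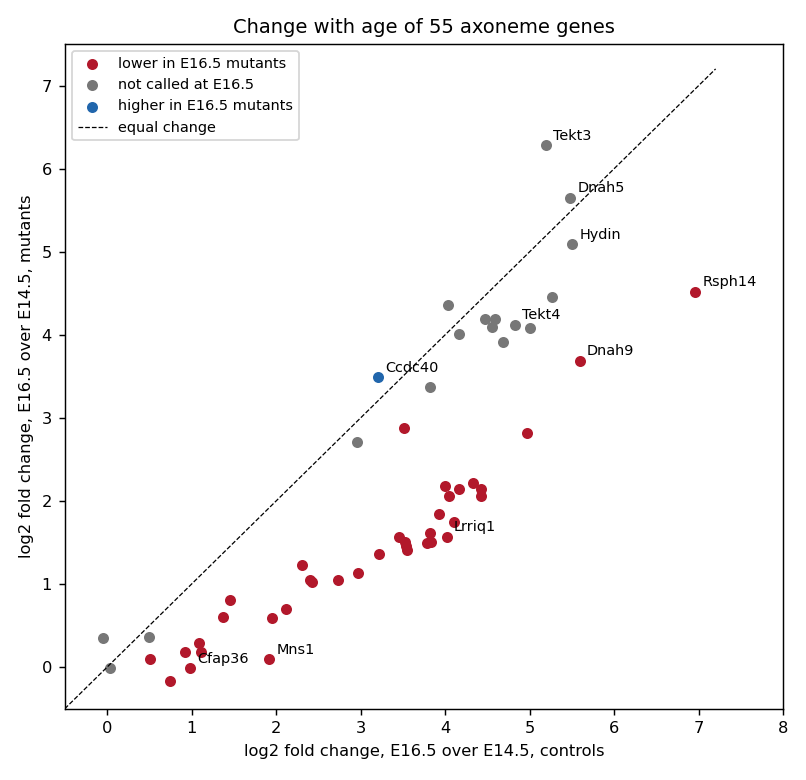
Log2 fold change of E16.5 over E14.5 for 55 axoneme genes, in mutants (y axis) and controls (x axis), coloured by the E16.5 genotype call; the dashed line marks equal change. Genes lower in E16.5 mutants lie below the line, with Mns1 and Cfap36 near 0 on the y axis, while Dnah5, Hydin and Ccdc40 lie close to it.

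Levels of different genes were compared per kilobase of exon (GENCODE M21 lengths). In E16.5 controls the highest was Dynlrb2, at 146 ± 28.7 CPM per kb, and it stood at 38.6 ± 2.85 CPM per kb in E16.5 mutants. Rsph1 came next in controls, at 78.9 ± 5.66 CPM per kb, and stood at 70.8 ± 9.65 CPM per kb in mutants, where it was the highest of the 56 genes. Cfap126 was at 20.4 ± 4.34 CPM per kb in mutants and 69.7 ± 9.43 CPM per kb in controls. In controls its level overlapped with that of Rsph1 within their SDs. Genes that fell and genes that were not called had like control levels, with medians of 13.6 and 13.0 CPM per kb, and like exon lengths, with medians of 3.61 and 3.1 kb.

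Other genes of ciliated cells, from lists chosen with earlier results known, also fell at E16.5. The shares over all genes tested at that age were 15.7% lower and 12.2% higher. Of 50 further motile cilium genes tested at E16.5, 37 fell and 0 rose, with a median log2 fold change of -1.58, and 38 had an unadjusted p under 0.05. Among 10 transcription factors of multiciliated cells 5 fell: Gmnc at -1.47, Myb at -1.31, Rfx3 at -0.78, Rfx2 at -0.63 and Trp73 at -0.48 on the log2 scale. Mcidas, which starts the multiciliated programme, stood at 23.6, 34.3 and 31.0 CPM in mutants and 29.0, 32.7 and 32.3 CPM in controls and was not called (log2 fold change -0.06, adjusted p = 0.761). Of 40 genes for ciliary transport and primary cilia, 31 fell and 1 rose, with a median of -0.51. That list serves nearly all cells, not only multiciliated ones. At E14.5 none of these 3 lists held a called gene, against 7.52% of all genes, with 12, 0 and 7 at an unadjusted p under 0.05.

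Many listed genes of the epithelium around the ciliated cells were also lower at E16.5, when 15.7% of all genes fell and 12.2% rose. Of 17 genes of non-ciliated nasal epithelium, 15 fell, with a median of -1.17, and their summed level was 1155.8, 1284.5 and 1195.7 CPM in mutants and 2295.7, 2397.7 and 2312.7 CPM in controls. Of 14 general epithelial genes, 7 fell and 7 were not called, with a median of -0.47. The 7 multiciliated cell markers gave 4 falls and a median of -1.53, and summed to 310.8, 644.1 and 557.1 CPM in mutants and 965.5, 1106.8 and 898.6 CPM in controls. Palate mesenchyme markers rose in 4 of 6 cases. Otx2 apart, markers of other tissues with motile cilia or flagella were low. The 6 ependymal and choroid plexus markers summed to 28.3, 11.7 and 19.1 CPM in E16.5 mutants and 21.3, 22.2 and 18.7 CPM in E16.5 controls. Among them Otx2 ranged from 3.77 CPM in mutant library 2 to 17.8 CPM in mutant library 1, against 7.8 to 8.09 CPM in controls, and Ttr had at most 0.112 CPM in any sample. Of 5 tested at E16.5, 1 fell and 0 rose. Kcnj13 stood at 1.11, 1.37 and 1.25 CPM in E16.5 mutants and 5.37, 6.19 and 4.2 CPM in E16.5 controls. The 6 male germ cell markers summed to 3.48 to 4.41 CPM in E16.5 mutants and 2.84 to 3.71 CPM in E16.5 controls. The share of the fall in axoneme genes that goes with nasal epithelial content was not tested.

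In the authors' deposited table for E16.5, 37 axoneme genes were lower at an adjusted p under 0.05, and all 37 were among those called lower above. The authors' deposited table listed 2 as higher at E16.5, Ccdc40 and Dnah5. For E14.5 the authors' deposited table listed Dnah1 as lower and Tekt2 and Tekt4 as higher.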

How the data were processed

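Bulk RNA sequencing gave gene counts for 12 samples, 3 in each of 4 groups. Per the submitters' processing notes, the authors used HISAT2, featureCounts, DESeq2 and build mm9. Versions, annotation and strand setting are not given in the sources used here. The deposited values are raw counts per gene. From the authors' deposited comparison tables the log2 fold change and adjusted p-value were read. 24 further columns of per-sample values in whole-series tables were not used.

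The gene counts entered edgeR 4.0.16 under R 4.3.3 (TMM factors, filterByExpr, quasi-likelihood test, Benjamini-Hochberg). Genotype was compared within each age on 6 samples. The difference between ages and the changes with age came from 1 fit of 12 samples with 4 group means. SE is the log2 fold change over the root of F. CPM are counts relative to library size, scaled by TMM factors. The scripts were tested on simulated data. Total counts per sample, from 76417891 to 125996587, set the precision, and counting error was not separated from spread between samples.

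Members, structural classes and lists were chosen with earlier results of these data known. Genes named with full values were the 4 with the highest mean CPM in each class, those called at E14.5 or in the rarer direction, the 3 largest falls and rises at E16.5 and the 5 with the smallest p for the difference between ages. Fgf8, Foxj1 and up to 2 genes of each other list were added. Other genes were named after their values were seen, to account for every member. Motifs were searched in the RefSeq promoter table.

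Replicate numbers were checked for pairing by correlating deviations from group means. The E16.5 groups gave 0.105, 0.161 and 0.222 over 17550 genes and were treated as paired in the block. The E14.5 groups gave 0.0193, 0.0445 and 0.16, so their numbers were not taken as pairing. As an alternative the block was still run at E14.5. It was also run in the fit of all samples, where replicate numbers were shared across ages. Over the 13463 genes with mean log2 CPM above 1, replicates numbered 3 gave 0.695 at E16.5 and 0.559 at E14.5, and they also deviated together across ages (0.61 in mutants, 0.56 in controls), so they resemble a set. The labels give no batch. Alternatives were other scalings (DESeq2 size factors, upper quartile), filters, DESeq2 1.42.0, limma-voom (limma 3.58.1), a 2-fold minimum, the replicate block, all samples in 1 fit and each library left out. Chosen after seeing the data were 3 more: an extra term marking replicate 3, only replicates 1 and 2, and dropping mutant libraries 1 and 3 of E16.5.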

Additional observations from a re-analysis of the deposited data

Results flagged for a closer look

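The genotype effect differed between E16.5 and E14.5 by the test of that difference (edgeR's quasi-likelihood test, adjusted over all genes). This held for 37 axoneme genes, each with a lower effect at E16.5. Among the genes named with full values, the log2 differences, E16.5 minus E14.5, were -2.45 for Lrriq1, -2.37 for Cfap58, -2.36 for Spag6, -2.32 for Dynlrb2, -2.15 for Cfap57, -2.08 for Ak8 and -2.01 for Cfap69. They were -1.90 for Dnah9, -1.82 for Cfap43, -1.82 for Mns1, -1.68 for Wdr78 and -1.34 for Rsph9. The smaller differences were -0.99 for Cfap36, -0.80 for Rsph3a, -0.78 for Cfap46, -0.73 for Dnal1 and -0.42 for Cfap20. Of these, Cfap46, Cfap20, Rsph3a, Cfap36 and Dnal1 lost the call under at least 1 alternative, the last 2 only with a 2-fold minimum. Single samples were not screened for outliers, because each group holds 3.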

How the results depend on the processing

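The count of axoneme genes called at E16.5 was 38, and 35 to 39 with 1 library left out, 39 by DESeq2, 38 by limma-voom, 42 with the replicate block (40 lower, 2 higher) and 28 with a 2-fold minimum. The difference between ages gave 37, and 35 to 39 with 1 library left out, 40 with the block and 28 with a 2-fold minimum. Age gave 49 in mutants (46 to 49) and 53 in controls (53 in each case), and 41 and 48 with a 2-fold minimum. The E14.5 count of 0 moved to 3 by DESeq2, to 2 with the replicate block and to 2 with a term for the replicates numbered 3 (Dnah1 and Tekt2 in both), and ranged from 0 to 4 with 1 library left out. The cause was not tested. At E14.5 the numbers were not taken as pairing, since only the replicates numbered 3 passed 0.1 over all genes. The fit without E16.5 mutant libraries 1 and 3 leaves 1 mutant library, assumed to vary like the others, so its count of calls is not given. No called result changed sign in the genes named with full values and the alternatives run. At E16.5 the sign of a fold change that was not called turned under at least 1 alternative for Hydin (-0.28 to 0.12), Rsph1 (-0.25 to 0.06), Dnah10 (-0.31 to 0.14), Dnali1 (-0.33 to 0.04), Dnal4 (-0.27 to 0.03), Tekt1 (-0.07 to 0.29), Rsph4a (-0.01 to 0.37), Cfap97 (-0.02 to 0.06), Cfap221, Tekt3 and Tekt4. Among single genes named, the alternatives together gained 10 and lost 26 calls at E16.5, 2-fold minimum included, and gained 7 and lost 31 for the difference between ages. At E16.5 the block added calls for Dnah5, Dnal4, Rsph1 and Cfap53 and changed no other. Precision by depth is lowest for Dnah17, Tekt3 and Tekt5, which stood at 0.74 to 3.6 CPM in E16.5 libraries.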

Other observations

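Dnaic2, an intermediate chain of the outer dynein arm that the symbol rule does not take in, stood at 55.4, 93.0 and 619.4 CPM in E16.5 mutant libraries 1, 2 and 3, against 86.1, 87.7 and 88.3 CPM in E16.5 controls. Library 3 alone stands apart, and the difference was not called (log2 fold change 1.57, SE 0.76, adjusted p = 0.16). It was singled out after its values were seen. At E14.5 it stood at 6.2 to 7.1 CPM in mutants and 4.63 to 6.94 CPM in controls. Dnaic1, its partner chain, stood at 15.4, 21.7 and 19.3 CPM in E16.5 mutants and 23.5, 21.8 and 21.5 CPM in E16.5 controls, so library 3 was not high for both.

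Kifap3, a subunit of the kinesin that carries cargo into cilia, was the 1 transport gene that rose at E16.5, at 136.7, 120.5 and 144.1 CPM in mutants and 98.4, 98.6 and 114.8 CPM in controls (log2 fold change 0.39, SE 0.09, adjusted p = 0.0165). Ift88, a carrier subunit of the same transport, fell, at 40.1, 44.9 and 41.6 CPM in mutants and 74.6, 83.5 and 77.4 CPM in controls (-0.87, SE 0.07, adjusted p = 4.62e-05).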
